A study of Homo sapiens with 12 samples.

Results

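The comparison of SNS-032 with its vehicle covered 6 RNA sequencing libraries of MOLT4 cells, an established line of human T-cell acute lymphoblastic leukaemia (T-ALL): 3 from cells kept 6 h in 250 nM SNS-032 and 3 from cells kept 6 h in 0.1% DMSO. They were taken by their labels from a series of 12 libraries, which also holds 3 libraries each of 250 nM THAL-SNS-032 and 250 nM NVP-2 at 6 h. Of 23617 gene names in the table, the 11379 that averaged at least 1 FPKM across those 12 were tested. The labels give 1 cell line and no genetic change in any group, and nothing in them tells separate cultures from repeat libraries of 1 culture. The p-values therefore measure only the spread between these libraries, which may be technical.

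SNS-032 is a small molecule that inhibits several cyclin-dependent kinases (CDKs), chiefly CDK2, CDK7 and CDK9. CDK9 and a T-type cyclin form P-TEFb, the kinase that releases paused RNA polymerase II into elongation, and CDK7 is the kinase of the initiation factor TFIIH. When the synthesis of messenger RNA is blocked, the level that remains depends on how fast each transcript decays, so transcripts of long and short life part within hours. In THAL-SNS-032 the SNS-032 structure is linked to thalidomide, which binds the E3 ligase subunit cereblon. NVP-2 inhibits CDK9 and has a different scaffold.

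Levels are deposited FPKM, fragment numbers scaled by transcript length and library size, on the scale of the authors. The median ratio to the DMSO mean of 31 RNA spike-ins, which were added at cell lysis and averaged at least 1 FPKM, lay between -0.031 and 0.039 on the log2 scale over the 12 libraries. Other summaries were less level: the median log2 FPKM of those 31 ran between 3.055 and 3.603, both in DMSO, and that of all 92 spike-ins, most of them barely measured, between -1.678 and -1.139, both with SNS-032. Changes are differences in mean log2(FPKM + 1), SNS-032 minus DMSO. Each is given on the deposited scale and, where named so, after centring, in which each library was multiplied by 1 factor that sets its median gene ratio to DMSO to 0. A centred value thus says where a gene stands among all genes, not whether its RNA per spike-in rose or fell. No counts are in the table, so the read depth of each library is unknown. In bulk RNA, fewer cells and less RNA per cell cannot be told apart, although the labels say that cells were counted before lysis. All 16 T-lineage and T-ALL markers on the list were tested, and their summed level was 1261 to 2123 FPKM with SNS-032, against 5718 to 7140 FPKM in DMSO. Markers of other blood lineages were mostly low, with 5 of 8 B-cell, 7 of 8 myeloid and 8 of 10 erythroid and megakaryocyte markers under 1 FPKM in all 3 DMSO libraries. PAX5 and MS4A1 of the B-cell list were under 0.3 FPKM in all 6 libraries. Other members of that list were not low in DMSO, with BLK at 43.1 to 51.9, CD79A at 8.52 to 9.54 and CD79B at 1.67 to 2.75 FPKM. The summed level of the 8 B-cell markers was 55.1 to 63.8 FPKM in DMSO.

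With SNS-032 nearly the whole transcriptome was lower per spike-in than in DMSO. The median log2(FPKM + 1) of the tested genes was 2.24, 2.98 and 2.82 in the SNS-032 libraries, against 4.77, 4.82 and 4.95 in the DMSO libraries. The groups did not overlap, and the means differed by -2.17 (exact two-sided permutation p = 0.1, the smallest that 3 against 3 allows). The number of genes at 1 FPKM or more was 9140, 10455 and 10266 with SNS-032 and 12083, 11972 and 12189 in DMSO. SNS-032 replicate 1 stood apart, with a median gene ratio to DMSO of -2.76 (log2), against -1.90 and -2.03 for replicates 2 and 3. This difference lay in the scale of that library: the SD of the median gene between SNS-032 libraries was 0.389 on the deposited scale and 0.0857 after centring, and between DMSO libraries 0.120 and 0.0759.

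At an adjusted p under 0.05 (limma, Benjamini-Hochberg), 175 genes were called higher (1.54% of those tested) and 10759 lower (94.6%) with SNS-032, and 445 were not called. The groups did not overlap in 95.9% of genes: in 10785 (94.8%) all 3 SNS-032 values lay below all 3 DMSO values, and in 132 (1.16%) all lay above. The median gene changed by -1.92, with 5% of genes below -3.39 and 5% above -0.41. A change of -2 or below was seen in 5262 genes, and one of -4 or below in 160. The 12 largest falls among named genes whose groups did not overlap, short RNAs left out, ranged between -4.77 and -5.84: GIMAP5, NMI, BCAS2, SAP30, MRPS18A, EXOSC3, PSMG1, PREB, CCDC85B, RRP36, GEMIN6 and BAG2. They hold a proteasome assembly factor (PSMG1), a histone deacetylase subunit (SAP30) and a ribosomal RNA processing factor (RRP36), and SAP30 had 1.32, 3.19 and 2.36 FPKM with SNS-032, against 115, 117 and 121 FPKM in DMSO. For every list count against DMSO on the deposited scale, the background is the 94.6% of all tested genes called lower. A list with all members called lower is thus near that share. After centring, 4686 genes were higher (41.2%) and 4732 lower (41.6%), which is the background for every centred count against DMSO. When the median log2 value of each library was subtracted in place of that factor, 5987 were higher and 3538 lower. The size of the fall varied with the starting level. Genes at 1 to 5 FPKM in DMSO had a median change of -1.15, those at 5 to 20 FPKM -1.91, those at 20 to 100 FPKM -2.19, those at 100 to 500 FPKM -2.07 and those at 500 FPKM or more -1.38. The pseudocount shrinks changes of low genes, so the first of these values is not set against the others. Gene length went with little of it: over 5 equal groups from the shortest to the longest gene span, the median changes of 8880 protein-coding genes at 5 FPKM or more in DMSO lay between -2.13 and -1.92.

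**Figure D1:**
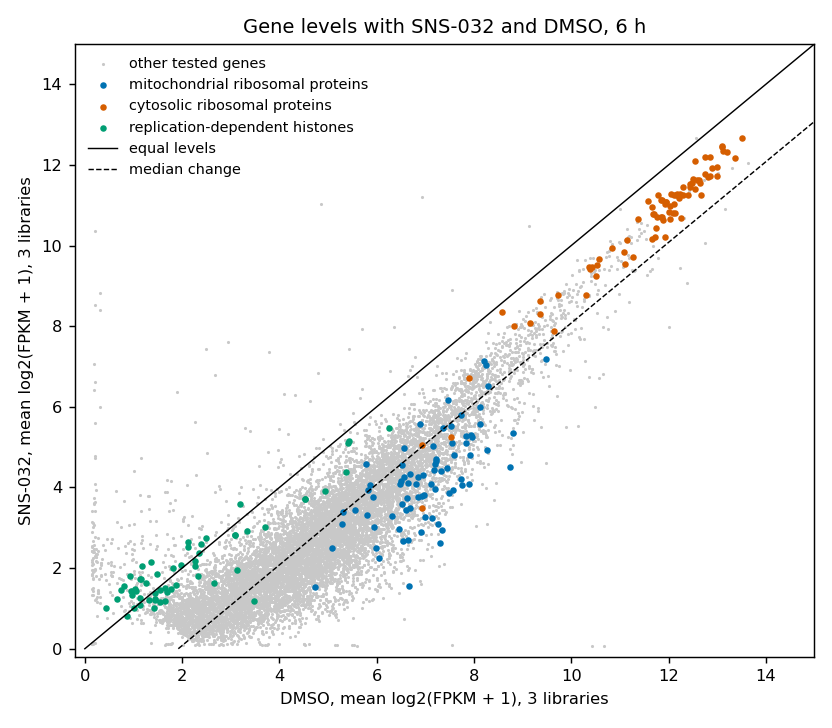
Mean level of the 11379 tested genes with SNS-032 (y axis) against DMSO (x axis), both as log2(FPKM + 1), with 3 libraries a group. The solid line marks equal levels and the dashed line the median change of -1.92; cytosolic ribosomal protein genes and replication-dependent histone genes lie above the dashed line on the whole, and mitochondrial ribosomal protein genes below it. The 3 genes above 15 on an axis are not drawn.

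The genes of the drug's own targets were called lower, as were 94.6% of all tested genes. All 18 tested CDK genes were called lower on the deposited scale (median -1.76, against -1.92 over all genes). After centring 10 were higher and 7 lower (median 0.35). CDK9 had 6.96, 12.8 and 10.8 FPKM with SNS-032, against 31.6, 36.98 and 39.7 FPKM in DMSO. Every SNS-032 value was below every DMSO value, with a change of -1.76 (SE 0.19) and 0.36 after centring. CDK7 had 2.53, 5.19 and 4.52 FPKM with SNS-032, against 42.7, 43.1 and 44.6 FPKM in DMSO, a change of -3.17 (SE 0.18), and it remained low after centring (-1.21). Its cyclin partner CCNH moved much the same, with 4.37, 7.38 and 7.74 FPKM with SNS-032, against 59.2, 66.2 and 72.8 FPKM in DMSO (-3.19, -1.13 after centring). CDK2, which pairs with cyclins E and A at the start of replication, had 30.2, 54.2 and 50.2 FPKM with SNS-032, against 123, 138 and 145 FPKM in DMSO. It changed by -1.61 and was above the median gene after centring (0.59). The elongation kinases CDK12 and CDK13 changed by -2.24 and -2.50, and both stood below the median gene (-0.21 and -0.62 after centring). The D-cyclin kinases differed: CDK4 fell to 27.1, 44.4 and 42.1 FPKM with SNS-032, against 265, 318 and 328 FPKM in DMSO (-2.996, -0.80 after centring), while CDK6 kept 132, 231 and 225 FPKM, against 308, 331 and 375 FPKM in DMSO (-0.82, 1.40 after centring).

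Of 20 tested cyclin genes, 18 were called lower on the deposited scale (median -1.42) and 2 not called, and 11 were higher and 6 lower after centring. The replication cyclin CCNE2 fell most (-3.98), and the 2 that were not called were CCNT1 and CCNT2, the cyclin partners of CDK9. CCNT1 had 14.6, 27.2 and 23.2 FPKM with SNS-032, against 26.4, 25.5 and 28.4 FPKM in DMSO, so that the groups overlapped. Its change was -0.34 (95% interval -0.74 to 0.07, adjusted p = 0.0968), and it was -0.087 and not called without SNS-032 replicate 1, and called without replicate 2 (-0.52). CCNT2 had 11.97, 21.8 and 19.3 FPKM with SNS-032, against 22.2, 22.2 and 24.4 FPKM in DMSO. There every SNS-032 value lay just below the DMSO values, and the change of -0.40 (95% interval -0.80 to 0.00, adjusted p = 0.0542) was -0.15 and not called without SNS-032 replicate 1, and called without replicate 2 (-0.56) or 3 (-0.48). CCNK, the partner of CDK12 and CDK13, had 21.7, 38.4 and 35.8 FPKM with SNS-032, against 64.3, 69.5 and 73.6 FPKM in DMSO and fell by less than the median gene (-1.13, 1.06 after centring).

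The genes of the transcription machinery fell unevenly, as did genes at large. The P-TEFb list, which holds the 7SK proteins and the recruiters of the kinase, had 15 of 18 tested members called lower and 3 not called (median -1.84, 0.09 after centring). MEPCE, the enzyme that caps 7SK RNA, had 3.06, 5.71 and 5.17 FPKM with SNS-032, against 118, 132 and 139.5 FPKM in DMSO (-4.56, -2.57 after centring). All 12 tested RNA polymerase II subunit genes were called lower (median -1.76, 0.45 after centring). POLR2A, the largest subunit, had 8.53, 16.1 and 14.5 FPKM with SNS-032, against 41.2, 50.7 and 54.8 FPKM in DMSO (-1.86, 0.27 after centring). All 28 general transcription factor genes were called lower as well (median -2.19, -0.11 after centring), with GTF2E2, a TFIIE subunit, at -4.33. Among 19 elongation factor genes, all called lower (median -2.07, 0.14 after centring and -0.14 with quantile-normalized libraries), PAF1 changed by -3.83 and the elongin A gene TCEB3 by -0.56; the TCEB3 value was -0.30 without SNS-032 replicate 1.

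Within Mediator, the complex that joins transcription factors to RNA polymerase II, members were spread over 4 log2 units. Of 29 tested subunit genes, 28 were called lower and 1 was not called (median -2.25, -0.16 after centring). MED6 had 2.46, 3.72 and 3.92 FPKM with SNS-032, against 75.8, 74.9 and 76.8 FPKM in DMSO, and MED11 had 0.722, 0.854 and 0.681 FPKM with SNS-032, against 25.9, 26.3 and 28.3 FPKM in DMSO. These were the largest falls of the complex (-4.16 and -3.99; -2.23 and -2.62 after centring). MED26, the subunit that docks elongation factors, had 9.64, 16.2 and 15.7 FPKM with SNS-032, against 13.3, 13.3 and 15.4 FPKM in DMSO. Its groups overlapped and the change was -0.04 (95% interval -0.42 to 0.33, adjusted p = 0.819), with a positive sign without SNS-032 replicate 1 (0.18) or DMSO replicate 3 (0.02).

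MED26 was 1 of the genes named here that were at about the DMSO level with SNS-032 and lower with both other compounds. They were chosen for this pattern after their values were seen, so their differences are given as a description. How many genes share the pattern was not counted. MED26 averaged 13.9 ± 3.65 FPKM with SNS-032, 1.94 ± 0.343 with THAL-SNS-032, 0.325 ± 0.0181 with NVP-2 and 13.98 ± 1.21 in DMSO (SD, n = 3 each). On the log2 scale, SNS-032 minus THAL-SNS-032 was 2.31 and SNS-032 minus NVP-2 3.45. CCNT1 stood at 21.7 ± 6.47 FPKM with SNS-032, 4.84 ± 0.459 with THAL-SNS-032, 0.863 ± 0.108 with NVP-2 and 26.8 ± 1.49 in DMSO, with SNS-032 1.92 and 3.56 above the other compounds. CCNT2 differed from them by 1.89 and 2.19. The same held for PCF11, which ends transcription at poly(A) sites, with 29.97 ± 9.11 FPKM with SNS-032, 6.31 ± 1.09 with THAL-SNS-032, 1.19 ± 0.165 with NVP-2 and 32.7 ± 2.36 in DMSO (2.05 and 3.78). The m6A reader gene YTHDF1 differed by 2.26 and 4.77, the ubiquitin ligase gene RNF168 by 2.36 and 2.92, and the p53 phosphatase gene PPM1D by 3.21 and 3.90. Each of these 14 differences kept its sign after centring and without any 1 library of the pair. Among all genes, SNS-032 was higher than THAL-SNS-032 in 1900 genes (16.7%) and lower in 1526 (13.4%), and higher than NVP-2 in 5989 (52.6%) and lower in 89 (0.782%). Single libraries moved these counts. Without SNS-032 replicate 1, 3423 genes were higher than with THAL-SNS-032 and 9290 higher than with NVP-2, and without SNS-032 replicate 2, 2764 were lower than with THAL-SNS-032. Without THAL-SNS-032 replicate 1, 2 or 3, the number lower than with THAL-SNS-032 was 960, 614 or 907, and without NVP-2 replicate 2, 56 were lower than with NVP-2. The level with SNS-032 was not itself shown to equal that in DMSO. For PCF11 the change from DMSO was -0.17 (95% interval -0.60 to 0.27) and 0.10 without SNS-032 replicate 1, and for YTHDF1 -0.10 (95% interval -0.54 to 0.35) and 0.16. RNF168 changed by 0.03 (95% interval -0.41 to 0.46) and PPM1D by 0.12 (95% interval -0.28 to 0.52). Without SNS-032 replicate 1 both were called higher than in DMSO (0.30 and 0.37), without replicate 2 both signs were negative (-0.17 and -0.06), and RNF168 was also negative without SNS-032 replicate 3 (-0.04) or DMSO replicate 1 (-0.02).

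**Figure D2:**
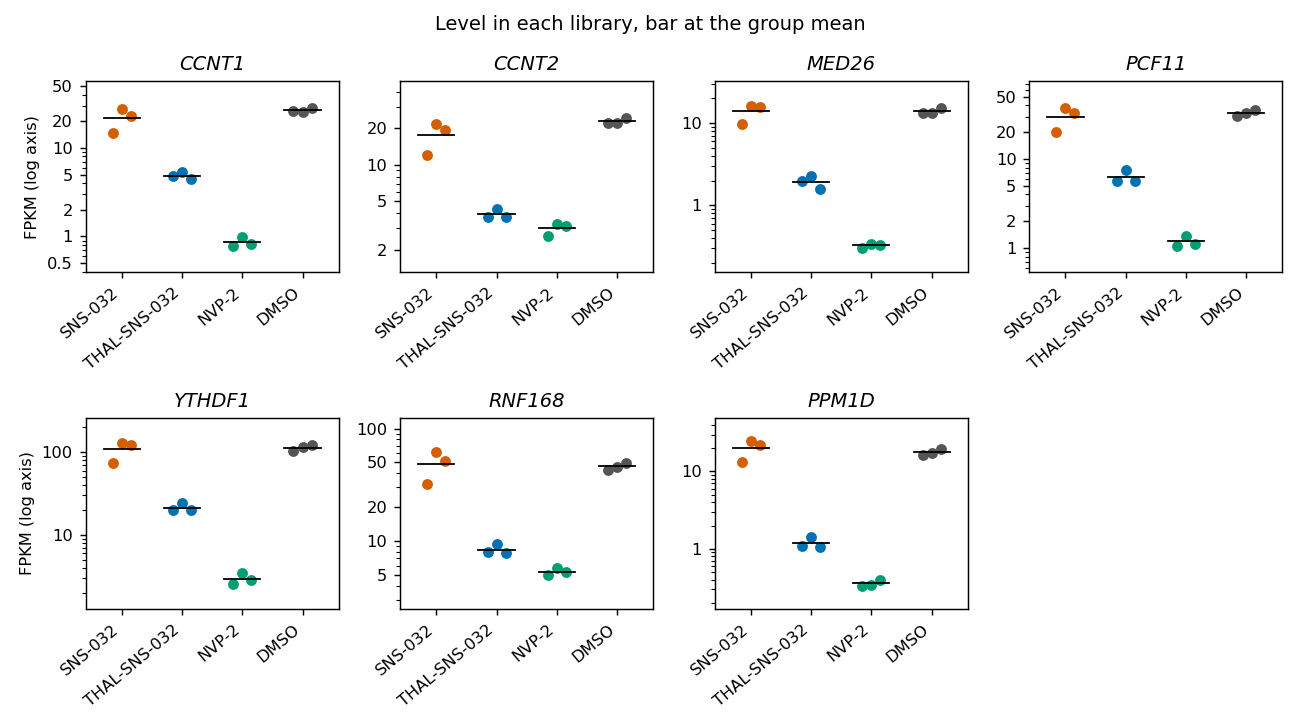
Level in each of the 12 libraries, as FPKM on a log axis, of CCNT1, CCNT2, MED26, PCF11, YTHDF1, RNF168 and PPM1D, with groups in the order SNS-032, THAL-SNS-032, NVP-2 and DMSO and a bar at the group mean. In each panel the SNS-032 points lie near the DMSO points and above those of both other compounds.

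RNA processing genes spread as widely. All 41 tested core spliceosome genes were called lower on the deposited scale (median -1.93), and 21 were higher and 10 lower after centring (median 0.30, but -0.13 with quantile-normalized libraries). BCAS2, of the complex that activates the spliceosome, had 2.31, 4.16 and 3.21 FPKM with SNS-032, against 145, 157 and 162 FPKM in DMSO. It changed by -5.23 (SE 0.17), the third largest fall in that ranking. The core snRNP gene SNRPD2 had 481, 746 and 808 FPKM with SNS-032, against 1010.4, 1249 and 1164 FPKM in DMSO and fell by less than the median gene (-0.78, 1.45 after centring). All 34 SR protein, hnRNP and splicing kinase genes were called lower (median -1.89, 0.33 after centring and -0.15 with quantile-normalized libraries). SRSF3, an SR protein gene, changed by -4.33, and the kinase gene CLK3 by -0.76 (-2.15 and 1.44 after centring; CLK3 -0.48 without SNS-032 replicate 1). Of 30 genes of Integrator and 3' end processing, 29 were called lower and 1 was not called (median -2.38, -0.21 after centring). The endonuclease gene CPSF3, which cuts at the poly(A) site, had 7.52, 13.5 and 11.5 FPKM with SNS-032, against 127, 138 and 139.5 FPKM in DMSO (-3.55). CLP1, a partner of PCF11, had 11.6, 22.4 and 20.2 FPKM with SNS-032, against 24.6, 30.05 and 30.3 FPKM in DMSO (-0.67, and -0.39 without SNS-032 replicate 1). All 39 RNA decay genes were called lower (median -2.10, 0.00 after centring), with the exosome subunit gene EXOSC3 at 0.951, 2.42 and 1.70 FPKM with SNS-032, against 83.2, 84.6 and 92.4 FPKM in DMSO (-5.06).

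Ribosomal protein genes of mitochondria and of the cytosol lay on opposite sides of the median gene. All 76 mitochondrial ribosomal protein genes were called lower, with the lowest median of the lists with 10 or more members (-2.73), and 56 were lower and 14 higher after centring (median -0.57). MRPS18A had 0.868, 2.94 and 2.47 FPKM with SNS-032, against 90.2, 104 and 108 FPKM in DMSO (-5.10, -3.39 after centring), and MRPL33, the highest of the list in change, had 95.6, 178 and 158 FPKM with SNS-032, against 261, 303 and 322 FPKM in DMSO (-1.08). Of 82 tested cytosolic ribosomal protein genes, which include a few paralogs of like name, 80 were called lower and 2 not called, but their median was -0.996, and after centring 80 were higher and 1 lower (median 1.23, or 0.11 with quantile-normalized libraries, which forces the highest genes of each library to be level). RPS27 had 4636, 7347 and 8176 FPKM with SNS-032, against 9933, 12587 and 12578 FPKM in DMSO (-0.83, 1.40 after centring). The paralog RPL7L1 was the exception after centring, with 7.47, 12.8 and 11.1 FPKM with SNS-032, against 110.1, 124 and 129 FPKM in DMSO (-3.44, -1.32 after centring). Pseudogene copies of ribosomal protein genes can take reads from them, and the counting is not stated. The 40 genes of ribosome biogenesis and RNA polymerase I were all called lower (median -2.49), and 25 were lower and 9 higher after centring (median -0.39). NPM1, a nucleolar chaperone, had 573, 976 and 989 FPKM with SNS-032, against 3120.1, 3746 and 3779.6 FPKM in DMSO (-2.10, 0.12 after centring but -0.91 with quantile-normalized libraries). POLR1E, an RNA polymerase I subunit, had 1.32, 2.76 and 1.62 FPKM with SNS-032, against 52.3, 55.2 and 63.3 FPKM in DMSO (-4.35).

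**Figure D3:**
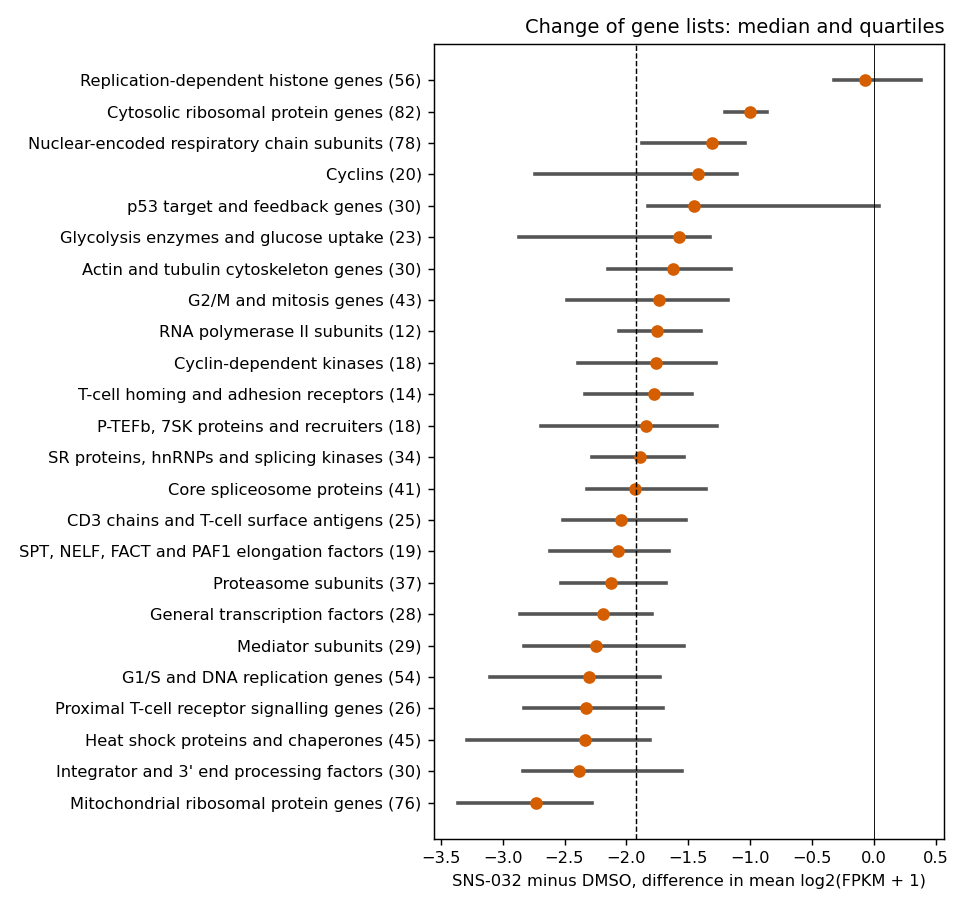
Change with SNS-032 against DMSO on the deposited scale, as the difference in mean log2(FPKM + 1), for 24 gene lists: points are medians over tested members, lines run between the quartiles, and the number of tested members stands beside each name. The dashed line is the median of all 11379 tested genes, -1.92; the histone, cytosolic ribosomal protein and respiratory chain lists lie right of it and the mitochondrial ribosomal protein list left.

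Respiratory chain genes lay mostly above the median gene, by an amount that depended on the scaling. Of 78 tested nuclear-encoded respiratory chain subunit genes, 77 were called lower and 1 was not called (median -1.31), and 63 were higher and 10 lower after centring (median 0.91). With quantile-normalized libraries 47 were higher and 21 lower (median 0.28). COX8A, of cytochrome c oxidase, had 576, 908 and 957 FPKM with SNS-032, against 909, 1205 and 1247 FPKM in DMSO. Its groups nearly met and the call (-0.48) was lost without SNS-032 replicate 1 (-0.25) and without DMSO replicate 2 (-0.42) or 3 (-0.40). All 23 glycolysis genes were called lower (median -1.58, 0.65 after centring and -0.33 with quantile-normalized libraries). GAPDH had 2802, 4368 and 4802 FPKM with SNS-032, against 8463, 11318 and 10924 FPKM in DMSO (-1.38, 0.84 after centring but -0.50 with quantile-normalized libraries), and PFKFB3, which makes the activator of phosphofructokinase, had 0.527, 0.893 and 0.790 FPKM with SNS-032, against 32.1, 33.8 and 39.4 FPKM in DMSO (-4.38). All 37 proteasome subunit genes were called lower (median -2.12, 0.05 after centring and -0.35 with quantile-normalized libraries), between PSMC6 at -4.05 and PSMA7 at -1.20.

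Heat shock protein and chaperone genes fell by very different amounts, as did genes at large. Of 45 tested genes, 1 was called higher and 44 lower (median -2.33), and after centring 14 were higher and 22 lower (median -0.19). With quantile-normalized libraries 6 were higher and 37 lower (median -0.56). HSPA8, the constitutive HSP70, had 174, 315 and 294 FPKM with SNS-032, against 3562, 4472 and 4451 FPKM in DMSO (-4.03, -1.80 after centring). DNAJA1, an HSP40 co-chaperone, had 29.9, 53.3 and 53.3 FPKM with SNS-032, against 837, 1010.3 and 1000.4 FPKM in DMSO (-4.39, -2.19 after centring). The gene that rose was HSPA2, an HSP70 best known from testis, with 1.88, 3.27 and 2.87 FPKM with SNS-032, against 1.34, 0.771 and 0.945 FPKM in DMSO (0.85, adjusted p = 5.86e-05). HSF1, the heat shock factor, binds inverted repeats of GAA. The core GAANNTTC or TTCNNGAA, on either strand, was found within the 250 bases before the gene start for 8 of 42 chaperone genes with a promoter in the RefSeq table (19.05%), against 11.7% of all 27305 promoters in it. The share was 18.3% for mitochondrial ribosomal protein genes, a list with no known link to that factor. HSPA8 held 4 matches, DNAJA1 1 and HSPA2 0. The stretch just before the HSPA8 start is shown because HSPA8 was the most abundant chaperone transcript in DMSO, with the matches in it, 2 that overlap, in capitals (RefSeq, GRCh38.p14, chr11:123062137-123062256, minus strand, 5′ to 3′).
HSPA8: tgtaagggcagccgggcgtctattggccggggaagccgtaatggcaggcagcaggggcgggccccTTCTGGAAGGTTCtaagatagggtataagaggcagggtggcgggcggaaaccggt
A match is a sequence of letters in the reference and does not show that the factor was bound.

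Transcripts that mark T cells and this leukaemia fell by very different amounts, as did genes at large (5% below -3.39 and 5% above -0.41). All 25 tested T-cell surface antigen genes were called lower on the deposited scale (median -2.04), and after centring 10 were higher and 11 lower (median 0.01). CD3D, a chain of the T-cell receptor complex, had 322, 523 and 529 FPKM with SNS-032, against 1726, 2254 and 2154 FPKM in DMSO and fell as the median gene did (-2.18, 0.04 after centring but -0.81 with quantile-normalized libraries). CD2, an adhesion receptor, had 7.38, 14.6 and 11.2 FPKM with SNS-032, against 135, 149.6 and 155 FPKM in DMSO (-3.65, -1.53 after centring). All 26 genes of proximal receptor signalling were called lower (median -2.32), and 17 were lower and 8 higher after centring (median -0.45). TRAT1, an adaptor that steadies the receptor at the surface, had 2.58, 4.71 and 4.69 FPKM with SNS-032, against 87.99, 90.8 and 95.4 FPKM in DMSO (-4.24), while PRKCQ, the protein kinase C of T cells, had 22.3, 39.1 and 35.7 FPKM with SNS-032, against 50.4, 59.1 and 59.4 FPKM in DMSO (-0.81, 1.38 after centring). The 7 GIMAP genes, lymphocyte GTPases that lie in 1 cluster, were all called lower and held the largest fall of that ranking. GIMAP5, needed for the survival of T cells, had 0.684, 0.386 and 0.957 FPKM with SNS-032, against 84.4, 95.6 and 103 FPKM in DMSO (-5.84, SE 0.18), whereas GIMAP7 had 41.5, 78.02 and 69.6 FPKM with SNS-032, against 208, 236 and 258 FPKM in DMSO (-1.92, 0.29 after centring and -0.035 with quantile-normalized libraries). Of 14 tested homing and adhesion receptor genes, 13 were called lower and 1 was not called (median -1.78, 0.39 after centring). SELPLG, the ligand of P-selectin, had 0.637, 1.28 and 1.18 FPKM with SNS-032, against 44.3, 54.1 and 54.9 FPKM in DMSO (-4.69). CXCR4, the chemokine receptor of the marrow niche, had 233, 403 and 388 FPKM with SNS-032, against 427, 506 and 519 FPKM in DMSO. Its fall (-0.54) was -0.29 without SNS-032 replicate 1 and not called without DMSO replicate 2 (-0.50) or 3 (-0.49).

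Of 20 tested leukaemia transcription factor genes, 19 were called lower and 1 was not called (median -2.11), and after centring 9 were higher and 9 lower (median 0.09, or -0.12 with quantile-normalized libraries). BCL11B, which fixes T-cell identity, had 21.7, 40.6 and 34.3 FPKM with SNS-032, against 52.7, 55.05 and 60.8 FPKM in DMSO (-0.83, 1.36 after centring). In the MYC network, 1 of 10 tested genes was called higher and 9 lower. The MAX-like partner gene MLX had 4.19, 8.90 and 6.86 FPKM with SNS-032, against 91.3, 101 and 106 FPKM in DMSO (-3.76), and MXD1, which competes with MYC for MAX, was the one that rose, with 3.87, 6.80 and 5.95 FPKM with SNS-032, against 3.10, 3.06 and 3.68 FPKM in DMSO (0.59, adjusted p = 0.00218). CD14, a monocyte receptor gene and 1 of the 8 myeloid markers, also rose, with 1.34, 2.78 and 2.14 FPKM with SNS-032, against 0.395, 0.438 and 0.405 FPKM in DMSO (1.10). CD14 was the only 1 of these markers tested, and it passed the filter only through libraries other than DMSO. CD68 went the other way, at 0.406 to 0.851 FPKM with SNS-032 and 1.45 to 2.38 FPKM in DMSO. LYZ was at 0.332 to 0.583 and 0.152 to 0.333 FPKM. CD33, MPO, CSF1R, ELANE and ITGAM stayed under 0.3 FPKM in all 6 libraries. The summed level of the 8 myeloid markers was 2.58 to 4.76 FPKM with SNS-032 and 2.62 to 3.70 FPKM in DMSO.

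Both lists of cell cycle genes were mostly called lower on the deposited scale, as were 94.6% of all tested genes. All 54 tested genes of G1/S and replication were called lower (median -2.30), and 27 were lower and 24 higher after centring (median -0.15). POLA2, of the polymerase that starts each DNA strand, had 1.89, 2.56 and 2.44 FPKM with SNS-032, against 64.9, 73.9 and 73.8 FPKM in DMSO (-4.45), and the transcription factor gene E2F3 had 21.3, 38.7 and 34.1 FPKM with SNS-032, against 44.2, 44.7 and 51.4 FPKM in DMSO (-0.60, and -0.35 without SNS-032 replicate 1). Of 43 G2/M genes, 1 was called higher and 41 lower (median -1.74), and 25 were higher and 15 lower after centring (median 0.47). The difference between these lists was not tested. The G2/M gene that rose was PRC1, which bundles the microtubules of the spindle midzone, with 83.05, 137 and 140.5 FPKM with SNS-032, against 69.8, 78.3 and 82.8 FPKM in DMSO (0.60, adjusted p = 0.00847). SPC25, of the kinetochore, had 4.10, 7.09 and 6.30 FPKM with SNS-032, against 92.5, 86.98 and 95.2 FPKM in DMSO (-3.79). CDKN2D, which encodes the CDK4 and CDK6 inhibitor p19, had 50.98, 93.8 and 82.4 FPKM with SNS-032, against 46.2, 52.9 and 49.5 FPKM in DMSO and was called higher (0.56, adjusted p = 0.0195), but not without SNS-032 replicate 2 (0.38) or 3 (0.48) or DMSO replicate 1 (0.51). Of 30 tested p53 target genes 5 were called higher and 20 lower (median -1.46, 0.66 after centring), and 8 were called higher without SNS-032 replicate 1. TP53INP1, which promotes cell death and autophagy, had 6.75, 12.99 and 10.7 FPKM with SNS-032, against 2.76, 2.37 and 2.39 FPKM in DMSO (1.63), and BBC3, which encodes PUMA, had 2.55, 5.13 and 3.78 FPKM with SNS-032, against 0.786, 0.786 and 1.41 FPKM in DMSO (1.25).

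Genes of cell death and of cell stress were mostly called lower, as were 94.6% of all tested genes. All 3 tested pro-survival BCL2 family genes were called lower (median -1.47, 0.27 after centring), between BCL2L1 (-2.01) and MCL1 (-0.97). Of 11 death-promoting members of the family, BBC3 rose and 10 were called lower (median -2.21, -0.33 after centring). BNIP3, which sits in the mitochondrial outer membrane, had 4.28, 6.17 and 5.14 FPKM with SNS-032, against 72.9, 72.8 and 81.1 FPKM in DMSO (-3.64). Of 19 IAP, CFLAR and caspase genes 17 were called lower and 2 not called (median -1.86, 0.05 after centring). DIABLO, whose protein frees caspases from their inhibitors, had 2.39, 6.12 and 4.85 FPKM with SNS-032, against 62.5, 61.4 and 62.9 FPKM in DMSO and was the lowest of that list (-3.60). BIRC5, which encodes survivin, had 102, 179 and 174 FPKM with SNS-032, against 182, 199 and 216 FPKM in DMSO (-0.43, 95% interval -0.87 to 0.01), and its groups did not overlap although it was not called (adjusted p = 0.0566); it was -0.17 and not called without SNS-032 replicate 1, and called without replicate 2 (-0.57) or 3 (-0.55).

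All 32 tested genes of the integrated stress and unfolded protein responses were called lower (median -2.32), and 19 were lower and 9 higher after centring (median -0.39). DDIT3, which encodes the death-promoting factor CHOP, had 0.211, 1.23 and 0.799 FPKM with SNS-032, against 44.6, 41.3 and 48.1 FPKM in DMSO (-4.75), and XBP1, the factor spliced by IRE1, had 3.10, 6.64 and 5.12 FPKM with SNS-032, against 126, 147 and 147 FPKM in DMSO (-4.60). SLC7A11, the cystine importer gene, was at the other end of the list (-0.91). All 17 genes of NF-kB subunits and their feedback inhibitors were called lower (median -2.29, -0.34 after centring). TNFAIP3, which encodes the inhibitor A20, had 6.74, 11.3 and 10.9 FPKM with SNS-032, against 14.8, 14.4 and 16.3 FPKM in DMSO and fell least of them (-0.63, or -0.41 without SNS-032 replicate 1). Of 16 immediate early genes KLF6 rose and 15 were called lower (median -1.84, -0.21 after centring but 0.33 with library medians subtracted), with the AP-1 gene JUND at 1.62, 3.86 and 2.49 FPKM with SNS-032, against 48.1, 65.6 and 66.3 FPKM in DMSO (-4.09). All 46 translation factor genes were called lower (median -2.05, 0.16 after centring but -0.23 with quantile-normalized libraries). Within them the cap-binding gene EIF4E had 8.37, 16.3 and 13.6 FPKM with SNS-032, against 111, 118 and 125 FPKM in DMSO (-3.15), and the elongation factor gene EEF1A1 had 2275, 3589 and 3913 FPKM with SNS-032, against 5856, 7399 and 7244 FPKM in DMSO (-1.10). All 22 genes of HLA class I and peptide loading were called lower (median -1.77, 0.27 after centring), with CALR, the chaperone of the loading complex, at -3.84 and B2M, the light chain, at -0.98.

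Of the 175 genes called higher, 61 were short RNAs or loci without a gene name, of which 1135 were among the 11379 tested, and 114 were other genes. Most came from low levels: 91 had a DMSO mean under 1 FPKM, where only 177 genes were tested, and 24 had 5 FPKM or more, of 10009 tested. The filter keeps a gene that is low in DMSO only if it is higher elsewhere, so the first share is set in part by the filter. GCM1, RAPSN and ELOVL3, named below, also passed it only through libraries other than DMSO. That genes of other tissues stand among the largest rises is thus not a result about tissue. RASL11A, a RAS-like GTPase gene, had 18.5, 28.8 and 30.8 FPKM with SNS-032, against 0.850, 1.72 and 1.21 FPKM in DMSO, the largest rise among named genes whose groups did not overlap, short RNAs left out (3.57, SE 0.19). PHLDA1, a pleckstrin-homology protein gene, had 10.02, 16.9 and 16.1 FPKM with SNS-032, against 0.519, 0.604 and 0.532 FPKM in DMSO (3.27), and APOE, a lipid carrier gene, had 8.40, 14.5 and 13.1 FPKM with SNS-032, against 0.499, 0.837 and 0.959 FPKM in DMSO (2.86). Some of the 12 largest rises were in genes best known from other tissues: GCM1, a transcription factor of the placenta, had 4.54, 7.47 and 5.56 FPKM with SNS-032, against 0.216, 0.163 and 0.221 FPKM in DMSO (2.49), RAPSN, which anchors acetylcholine receptors in muscle, had 4.63, 6.99 and 5.48 FPKM with SNS-032, against 0.416, 0.486 and 0.218 FPKM in DMSO (2.28), and ELOVL3, a fatty acid elongase of skin and brown fat, had 3.33, 4.91 and 5.64 FPKM with SNS-032, against 0.167, 0.160 and 0.172 FPKM in DMSO (2.25).

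**Figure D4:**
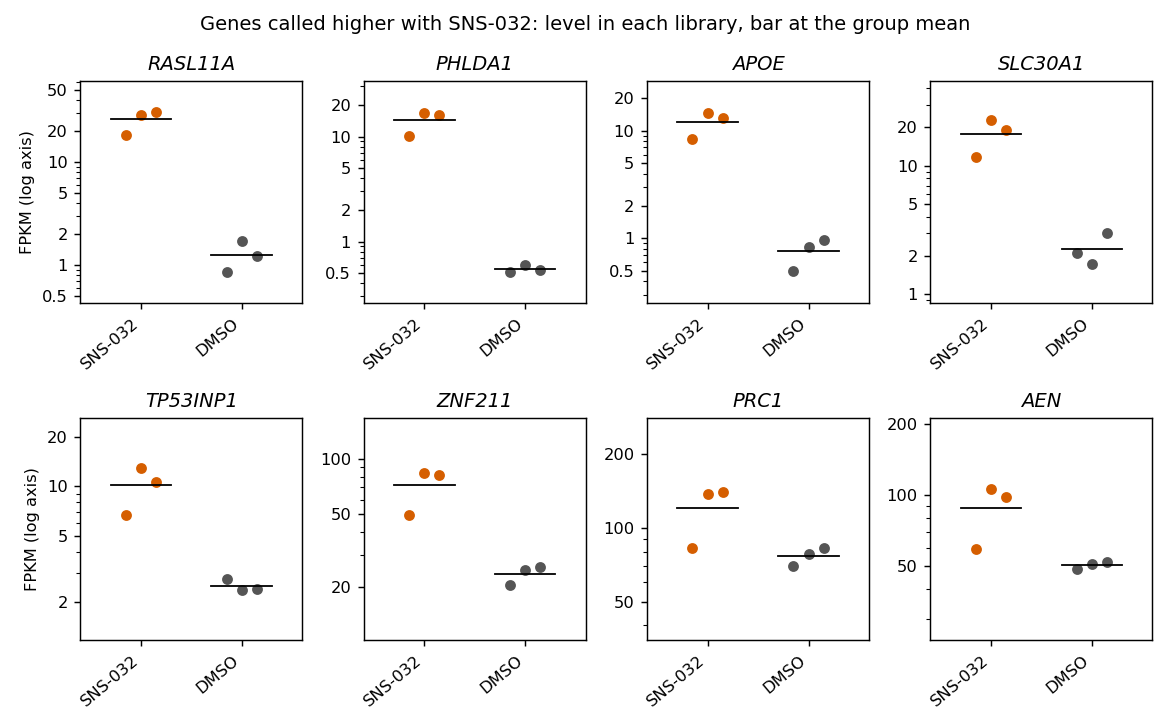
Level in each SNS-032 (left) and DMSO (right) library, as FPKM on a log axis, of 8 genes called higher: RASL11A, PHLDA1, APOE, SLC30A1, TP53INP1, ZNF211, PRC1 and AEN. In each panel the 3 SNS-032 points lie above the 3 DMSO points, by most for RASL11A and PHLDA1 and by least for PRC1 and AEN.

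Among rises from a measurable start, SLC30A1, the zinc exporter of the cell membrane, had 11.6, 22.8 and 18.9 FPKM with SNS-032, against 2.08, 1.70 and 2.99 FPKM in DMSO (2.50, SE 0.21). SLC30A1 is a known target of MTF1, which binds metal response elements. The core TGCACNC or TGCGCNC, on either strand, matched once in the 250 bases before its start, and 24.7% of all 27305 promoters held at least 1 match. The stretch is shown because of that described control, with the match, which reads on the opposite strand, in capitals (RefSeq, GRCh38.p14, chr1:211579162-211579241, minus strand, 5′ to 3′).
SLC30A1: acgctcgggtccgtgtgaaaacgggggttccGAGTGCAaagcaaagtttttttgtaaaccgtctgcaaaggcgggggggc
Beyond short RNAs, 12 genes at 5 FPKM or more in DMSO were called higher, chosen for naming after their values were seen: AEN, ARRDC4, CDKN2D, GNRH1, KLF6, MAFG, PRC1, RBM15, SESN1, TMEM183A, ZMAT3 and ZNF211. ZNF211, a zinc finger gene, had 49.6, 83.8 and 81.8 FPKM with SNS-032, against 20.6, 24.8 and 25.7 FPKM in DMSO (1.52, adjusted p = 2.07e-06) and was the highest of 392 tested ZNF genes, of which 3 were called higher and 376 lower. AEN, a p53-induced nuclease gene, had 59.3, 107 and 97.9 FPKM with SNS-032, against 48.8, 51.3 and 51.99 FPKM in DMSO (0.74, adjusted p = 0.00257), and KLF6, an immediate early transcription factor gene, had 15.7, 26.3 and 26.4 FPKM with SNS-032, against 11.1, 10.3 and 11.7 FPKM in DMSO (0.95). TMEM183A, a membrane protein gene, had 20.8, 38.4 and 31.6 FPKM with SNS-032, against 13.6, 15.1 and 15.5 FPKM in DMSO (0.95). With libraries scaled to equal medians of all 92 spike-ins AEN (0.53), CDKN2D (0.35) and PRC1 (0.39) were not called, and neither was MXD1 (0.42). With equal medians of the 31 measured ones CDKN2D (0.53) and PRC1 (0.57) were not called.

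Replication-dependent histone transcripts end in a stem-loop in place of a poly(A) tail. Their median change was near 0 as read in these poly(A)-selected libraries, although their summed level was lower. Over all 72 in the table the sum was 213 to 425 FPKM with SNS-032, against 428 to 441 FPKM in DMSO. Many of them are low, where the pseudocount shrinks changes. Of 56 tested genes, 6 were called higher, 11 lower and 39 not called (median -0.07), and 53 were higher and 1 lower after centring (median 1.67). These calls rest on single libraries: 13 were called higher without SNS-032 replicate 1 and 3 without replicate 2, 18 were called lower without replicate 2, and the median was 0.09 without SNS-032 replicate 1 and 0.03 without DMSO replicate 3. HIST1H2BH, the most abundant of them in DMSO, had 34.3, 47.96 and 51.04 FPKM with SNS-032, against 61.02, 82.1 and 86.5 FPKM in DMSO (-0.77, 1.43 after centring), and HIST2H3D had 1.71, 3.21 and 2.71 FPKM with SNS-032, against 0.770, 0.679 and 1.36 FPKM in DMSO (0.86). Histone genes of 1 type are near copies of each other and can share reads. The transcripts of variant histone genes carry poly(A) tails. Of 10 tested, 9 were called lower, against 94.6% of all tested genes, and their median was near that of genes at large (-2.29, -0.09 after centring). H2AFZ had 272, 454 and 474 FPKM with SNS-032, against 2119.5, 2382 and 2489 FPKM in DMSO (-2.58). The histone promoters also share letters that the list did not use. TATAAA, on either strand, stood in the 250 bases before 27 of the 45 matched histone genes (60.0%), against 11.1% of all promoters in the table, and CCAAT before 38 of 45 (84.4%), against 33.0%. The stretch before HIST1H2BH, given for its level, held 3 CCAAT matches, shown in capitals, and no TATAAA (RefSeq, GRCh38.p14, chr6:26251474-26251613, plus strand, 5′ to 3′).
HIST1H2BH: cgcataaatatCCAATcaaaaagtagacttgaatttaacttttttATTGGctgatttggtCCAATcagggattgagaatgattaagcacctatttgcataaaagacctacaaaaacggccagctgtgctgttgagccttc
The names of the histone genes are the older ones of the table, matched to RefSeq through its synonyms.

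Other RNAs without a poly(A) tail were spread in both directions. RPPH1, the RNA of ribonuclease P, had 70.4, 181 and 104 FPKM with SNS-032, against 5.19, 11.3 and 2.37 FPKM in DMSO (4.13), and RNU11, of the minor spliceosome, had 56.1, 92.6 and 47.1 FPKM with SNS-032, against 0.232, 0.224 and 0.244 FPKM in DMSO (5.69). Of 23 tested small Cajal, spliceosomal and RNA polymerase III transcripts, 6 were called higher and 2 lower, with 15 not called. Of 83 tested H/ACA snoRNA genes 10 were called higher and 28 lower (median -0.99), and of 67 box C/D snoRNA genes 6 were called higher and 9 lower (median -0.03). The changes of the C/D genes lay between -10.36 and 10.15, and those of 91 microRNA precursor genes between -10.61 and 9.33. FPKM of RNAs shorter than a sequenced fragment is not a dependable level, and several of them stood at the floor of about 0.1 FPKM in 1 group, so these 2 ranges describe the table only. That limit on short RNAs applies as well to the rise of RNU11, which stood at 0.224 to 0.244 FPKM in DMSO. The host transcripts of snoRNAs behaved like other genes, with 20 of 21 called lower (median -1.75, 0.44 after centring and 0.00 with quantile-normalized libraries).

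The direct contrasts with the other compounds, at the same dose and time, show where SNS-032 differed. THAL-SNS-032 carries the SNS-032 structure with a linker and a cereblon ligand added. Short RNAs and loci without a gene name, whose differences from it ran between -9.12 and 12.6, were left out of the ranking. Among the other called genes, the largest positive differences of SNS-032 were in B3GNT2 (3.74), ZNF622 (3.62), GADD45A (3.42), NOP16 (3.23) and PPM1D. B3GNT2, a glycosyltransferase gene, had 35.6 ± 11 FPKM with SNS-032 and 1.65 ± 0.223 with THAL-SNS-032 (SD, n = 3 each), and it was 77.3 ± 5.0 in DMSO. In the same ranking, the largest negative differences were in MGP (-2.88), KRCC1 (-2.36), CHRNA10 (-2.19), CXCR6 and HHEX. KRCC1 had 1.37 ± 0.612 FPKM with SNS-032 and 11.01 ± 1.73 with THAL-SNS-032. Over all genes 16.7% were higher and 13.4% lower in this contrast, and 29.0% and 43.4% after centring. Of the p53 target list, 20 of 30 genes were higher with SNS-032 and 1 lower (median 0.99). Of 43 G2/M genes 20 were higher and 3 lower (31 and 3 without SNS-032 replicate 1), and of 36 DNA repair genes 5 were higher and 19 lower (median -0.50), or 10 lower without THAL-SNS-032 replicate 2. limma called 0 of 82 cytosolic ribosomal protein genes and 0 of 12 polymerase II subunit genes, with 1 of each at an unadjusted p under 0.05. Without SNS-032 replicate 1, 2 and 5 of them were called higher. After centring 0 of the 82 were higher and 32 lower, against 29.0% and 43.4% of all genes. Of the 12, 5 were higher and 3 lower after centring.

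Against NVP-2, SNS-032 was mostly higher. CXCR4 differed by 5.43, the mRNA export gene NXT1 by 5.25, the ribosome assembly gene BRIX1 by 5.0, the mitotic gene CKS2 by 4.97 and YTHDF1 by 4.77. CXCR4 averaged 341 ± 94.2 FPKM with SNS-032 and 6.71 ± 0.637 with NVP-2. Short RNAs and loci without a gene name were left out of the ranking by difference. The 5 lowest of the other called genes were PLAUR (-0.79), GIMAP5 (-0.77), CHKB (-0.74), UPK3BL (-0.74) and GTPBP2 (-0.70), none of them beyond -1. The entries left out ran between -6.25 and 12.6, with 26 called lower. Over all genes 52.6% were higher and 0.782% lower, and 31.9% and 46.9% after centring. Of 56 replication-dependent histone genes 7 were higher and 10 lower with SNS-032 than with NVP-2, and 4 were higher and 35 lower after centring. On the deposited scale 12 were higher without SNS-032 replicate 1, and 4 without SNS-032 replicate 3 or NVP-2 replicate 1. Of 82 cytosolic ribosomal protein genes 78 were higher, 51 without SNS-032 replicate 2, and after centring 16 were higher and 15 lower. Both contrasts depend on the scale: after centring, the counts for SNS-032 against THAL-SNS-032 were 3299 higher and 4936 lower, and against NVP-2 3630 higher and 5339 lower.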

How the data were processed

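The samples were MOLT4 cells, an established leukaemia line, and RNA levels were measured in 12 poly(A)-selected, stranded libraries with spike-in RNA added at lysis, per the labels' protocols. The table of the authors was deposited as FPKM, made with HISAT and Cufflinks 2.0.0 on hg19 per the submitters' processing notes; the annotation, the counting of shared reads and the step that set the scale are not given in the sources used here. Of 23713 entries, 92 spike-ins and 4 entries with repeated names were left out. No FPKM value was 0, and 4199 genes stood in all libraries at a floor between 0.0910 and 0.104 FPKM.

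All 12 libraries were fitted by group with limma 3.58.1 (R 4.3.3, trend) on log2(FPKM + 1), for genes with a mean of at least 1 FPKM, leaving 8 residual degrees of freedom. Every adjusted p is two-sided and Benjamini-Hochberg over all 11379 tested genes, with calls under 0.05. The pseudocount of 1 FPKM understates changes of low genes. Library medians were compared by an exact permutation test. Alternatives were other pseudocounts, filters, scalings, limma settings, a 2-fold threshold, a replicate block and each library left out; leaving out THAL-SNS-032 and NVP-2 libraries and a scaling to 31 spike-ins were chosen after seeing the data. Read depth is unknown. Gene spans came from GENCODE and promoters from RefSeq, in which 8910 tested genes were matched.

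Members, lists and rules were chosen with earlier results of these data known. Genes were named by rule: the 12 largest rises and falls without overlap, the highest in DMSO and the 2 lowest and 2 highest in change of each list, a fixed set of cell cycle, transcription and leukaemia genes, the 10 highest genes in DMSO, and the 5 largest differences each way from the other compounds. The rankings of rises, falls and differences left out short RNAs and loci without a gene name. Not all genes named by rule are printed, and a few other genes were named for their role or after their values were seen. A few results are not reported here.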

Additional observations from a re-analysis of the deposited data

How the results depend on the processing

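For SNS-032 against DMSO on the deposited scale, 175 genes were higher and 10759 lower. The number higher was 478 with no filter on low values, 61 among genes averaging at least 5 FPKM, and 81 when a change of at least 2-fold was tested. With 1 library left out it ran between 158 and 247, and the number lower between 10687 and 10829. After centring, the 4686 higher and 4732 lower genes became 9937 and 10394 with no filter and 868 and 1074 at 2-fold. The difference of the library medians was -0.71 with no filter, against -2.17 over the tested genes; the unfiltered table holds more genes at the floor. For SNS-032 against THAL-SNS-032, centring gave 3299 higher and 4936 lower, and leaving out 1 library gave 1479 to 3423 higher and 614 to 2764 lower. For SNS-032 against NVP-2, centring gave 3630 higher and 5339 lower, and leaving out 1 library gave 4553 to 9290 higher and 56 to 128 lower. The cause of these moves was not tested. In these contrasts all settings kept the sign and call of the 14 and 16 genes named with a value.

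Calls of small changes were lost under some settings. With equal medians of all 92 spike-ins, whose level was 0.312 to 0.454 FPKM, AEN (0.53), CDKN2D (0.35), MXD1 (0.42) and PRC1 (0.39) were not called, while BIRC5 (-0.64) and CCNT2 (-0.60) were. With equal medians of the 31 measured spike-ins, chosen after seeing the data, CDKN2D (0.53), COX8A (-0.52), CXCR4 (-0.57) and PRC1 (0.57) were not called and RNF168 was -0.0059. In a fit of the 6 SNS-032 and DMSO libraries alone CDKN2D, COX8A, CXCR4, PRC1 and TCEB3 were not called. Some named genes changed sign. On the deposited scale, PPM1D was -0.084 and RNF168 -0.18 when each library was scaled to equal medians of all 92 spike-ins. With 1 library left out, MED26 ran between -0.16 and 0.18, PCF11 between -0.35 and 0.10, PPM1D between -0.055 and 0.37, RNF168 between -0.17 and 0.30 and YTHDF1 between -0.25 and 0.16; none of these 5 was called over all libraries. Of the centred values, those of CD3D (-1.02), CDK2 (-0.47), CDK9 (-0.68), GAPDH (-0.22), GIMAP7 (-0.77), NPM1 (-0.94) and POLR2A (-0.77) were negative with no filter, as the median change over all genes, to which they are set, was then nearer to 0. With quantile-normalized libraries CD3D (-0.81), GAPDH (-0.50), GIMAP7 (-0.035) and NPM1 (-0.91) were negative, and CD3D was -0.012 with library medians subtracted. Leaving out 1 library, CD3D ran between -0.041 and 0.125.

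SNS-032 and DMSO libraries with the same number showed little common deviation. The correlations of their deviations from the group means were -0.047, 0.049 and 0.092 for replicates 1, 2 and 3. SNS-032 replicate 1 correlated best with DMSO replicate 2 (0.086), and replicates 2 and 3 with the DMSO library of the same number. THAL-SNS-032 and NVP-2 libraries were not compared in this way. With the replicate block, 186 genes were higher and 10787 lower than in DMSO (4664 and 4699 after centring). Against THAL-SNS-032, 2133 were higher and 2307 lower (1900 and 1526 without the block). Against NVP-2, 6693 were higher and 123 lower (5989 and 89 without it).

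Read depth is unknown, so no counting error stands beside a level. With 3 libraries a group the exact test of medians cannot go below 0.1. SNS-032 replicate 1 lay lower than the other SNS-032 libraries by a nearly common factor, which widened the spread on the deposited scale. The 95% intervals of genes near the DMSO level reached about 0.4 log2 units each way.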
